A study of Mus musculus with 2 samples.

Results

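In mouse embryonic fibroblasts, 764 narrow valleys interrupted chromatin carrying dimethylated lysine 79 of histone H3 (H3K79me2). A valley was a 1 kb bin of the autosomes with 4 or fewer distinct reads in replicate 2, lying between flanks that each averaged 18 or more reads. The flank on each side was made of 3 bins, at offsets of 2 to 4 bins, so that the bin next to the valley was left out. At least 3 distinct reads in replicate 1 were also required, and adjacent bins were merged. The rule took 799 of the 2193077 autosomal bins that held reads, and these merged into 730 valleys of 1 kb, 33 of 2 kb and 1 of 3 kb.

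H3K79me2 is placed by the methyltransferase DOT1L, an enzyme brought to chromatin with the transcription elongation machinery. The mark covers nucleosomes of transcribed genes, most of all in the part that follows the gene start. Gene starts that are in use are themselves poor in nucleosomes, so less histone is present there to carry any histone mark. No gene is assigned to a valley here, because the gene table at hand belongs to another build than the mm8 positions of the reads. For the same reason no sequence is shown.

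Both libraries came from chromatin immunoprecipitation with 1 antibody against H3K79me2 in mouse embryonic fibroblasts. They form 1 group of 2 libraries, and their genotype, strain, age and any treatment are not stated in the labels. By the labels, flow cell, date and the fragment range cut from the gel also differed, and these cannot be told apart from the library. No input library was analysed here, and whether the libraries came from separate cultures is not stated, so their spread may be technical. Replicate 1 held 16472599 distinct autosomal reads with 1 placement at a background of 6.7 reads per kb. Replicate 2 held 12862946 at a background of 3.3 reads per kb. Background is the median of the 10 kb bins with reads, and replicate 2 stood further above its background in marked chromatin. Because replicate 2 chose the valleys, its depth at the valley and its flank heights describe the choice and are given with no test. From replicate 1 the rule used only the minimum of 3 reads, a floor on the very count that is compared with the flanks below. It raises that count: without it the pooled ratio of valley to flank bins in replicate 1 was 0.538 in place of 0.689. The flanks of replicate 1 and the rest of the contrast were not used by the rule.

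The valleys were sharp notches in broad marked chromatin in replicate 2, and a shallower notch appeared at the same place in replicate 1. In replicate 2 the mean count fell from 28.3 reads per kb at 3 kb to the left to 20.2 in the next bin, to 2.92 in the valley, and returned to 20.2 and 28.1 at 1 and 3 kb to the right. The valley therefore stood at 0.885 times background between flanks with a median of 7.73 times background. In replicate 1 the means at the same places were 17.1, 15.01, 11.6, 14.8 and 16.8 reads per kb. The valley of replicate 1 stood at 1.73 times background. Beyond the flanks both libraries declined slowly, and at 20 kb replicate 2 still averaged 16.6 reads per kb on either side, about 5 times background (5.02 and 5.04). Replicate 1 averaged 11.9 and 12.05 reads per kb at that distance.

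**Figure D1:**
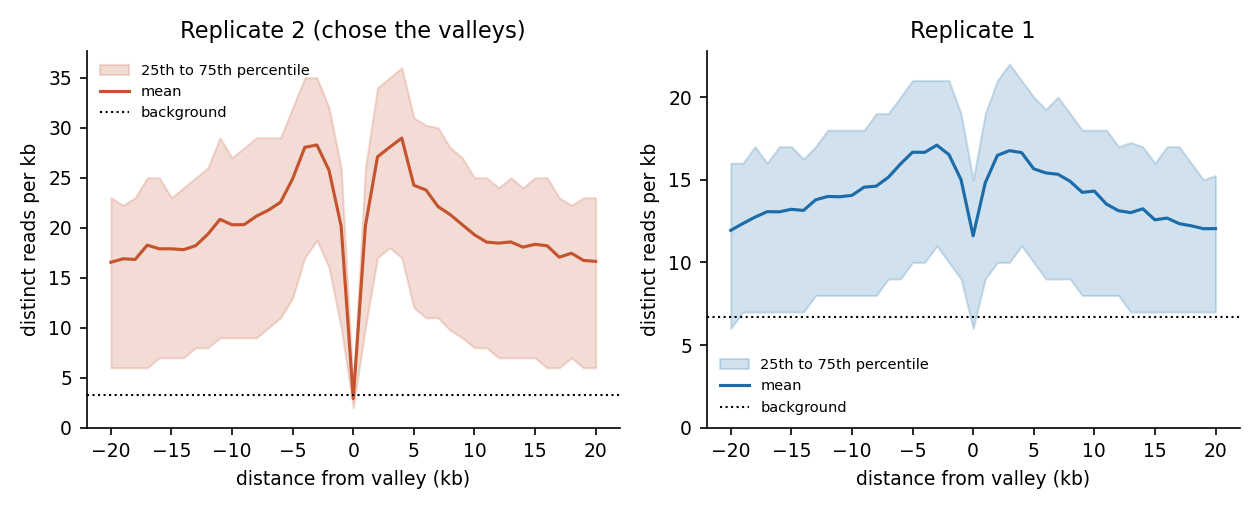
Mean distinct reads per kb (line) with the 25th to 75th percentile (band) over the 764 valleys, by distance in kb, for replicate 2 at the left and replicate 1 at the right; dotted lines mark each library's background. The mean drops to 2.92 reads per kb in replicate 2 and to 11.6 in replicate 1 at the valley, with marked chromatin on both sides.

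The flanks that replicate 2 marked strongly were weaker in replicate 1. Flank levels in replicate 1 had a median of 15.6 reads per kb and ran from 4.83 to 101 over the valleys. Both flanks exceeded the background of replicate 1 at 733 valleys (95.9%), and both reached 2 times that background at 355 (46.5%). The description of the flanks as strongly marked thus rests on replicate 2, and in replicate 1 fewer than 1 valley in 2 had it on both sides at that level.

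In replicate 1 the valley bins held 31.1% fewer reads than their own flanks. The mean was 11.5 reads in a valley bin and 16.7 in a flank bin, a pooled ratio of 0.689 (exact 95% interval 0.675 to 0.704, counting error only). In replicate 2, where the rule fixed it, the ratio was 0.105. The count in replicate 1 was under the flank mean in 627 of the 799 valley bins (78.5%), and the median ratio of single bins was 0.672. Among the 71347 autosomal bins with flanks as strong and with 3 or more reads in replicate 1, from which the valleys were drawn, 49.7% were under their flanks and the median ratio was 1.

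Single valleys were tested in replicate 1 by an exact two-sided binomial test of the bin against its 6 flank bins, with Benjamini-Hochberg adjustment over all 71347 bins. A bin was called lower or higher at an adjusted p below 0.05. Of the valley bins 109 (13.6%) were called lower, against a background of 1.53% over all bins tested, and 4 (0.501%) were called higher, against 3.47%. Called lower bins lay in 102 valleys. Without adjustment 246 valley bins (30.8%) were lower at p below 0.05 and 19 (2.38%) were higher, against 7.01% and 10.7% of all bins tested. Leaving out 9 valley bins that began below 4 Mb of their chromosome left 104 of 790 called lower (13.2%).

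Sequence that cannot be placed uniquely went with part of this contrast. Reads with 2 placements were denser in valley bins than over all autosomal bins, at 0.882 against 0.425 distinct positions per bin in replicate 1 and 0.793 against 0.313 in replicate 2. Flank bins held 0.551 and 0.709. Bins between flanks as strong but with 18 or more reads in replicate 2 held 0.346 and 0.781. Per bin, the valleys of replicate 2 were thus close to those bins. Those bins held 41.5 reads with 1 placement in replicate 2, however, and valley bins 2.90. Set against reads with 1 placement, which the rule kept low in valleys, positions with 2 placements were therefore more frequent there. Of the 102 valleys called lower, 67 (65.7%) held such a read in the valley, against 255 of the other 662 (38.5%). The test was repeated on the 9173 bins that held none in the bin or its flanks in either library. Of the 79 valley bins among them, 5 (6.33%) were called lower, against a background of 0.85%, and 0 were called higher, against 3.47%. Without adjustment 14 of the 79 were lower and 2 were higher at p below 0.05. Their pooled ratio in replicate 1 was 0.805 (0.753 to 0.860), nearer to 1 than that of all valley bins. In the 562 valley bins that themselves held no such read in replicate 1, it was 0.748 (0.730 to 0.767). The lists hold reads with at most 2 placements, so bins without such reads can still contain repeated sequence. The part of poorly placeable sequence in the remaining contrast was not tested, since no genome of the build was at hand.

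The contrast in replicate 1 was graded with the count in replicate 2 and had no step at the limit of 4 reads. Valley bins with 0 reads in replicate 2 (40 bins) had a pooled ratio of 0.472 in replicate 1 (0.422 to 0.526). With 1, 2, 3 and 4 reads the ratio was 0.565, 0.648, 0.718 and 0.750. Just outside the limit, the 394 bins with 5 reads had 0.742 (0.7195 to 0.765). The ratio then went up through 0.815 at 6 to 8 reads and 0.915 at 13 to 17, and reached 1.14 at 40 reads or more. At the flank limit, valley bins whose weaker flank averaged 18 up to 19 reads had a ratio of 0.801 (136 bins), and bins just under it, at 17 up to 18, had 0.805 (190 bins). At the limit in replicate 1, 58 valley bins held exactly 3 reads there, and 125, 69 and 52 bins that met the rest of the rule were left out with 0, 1 and 2 reads.

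**Figure D2:**
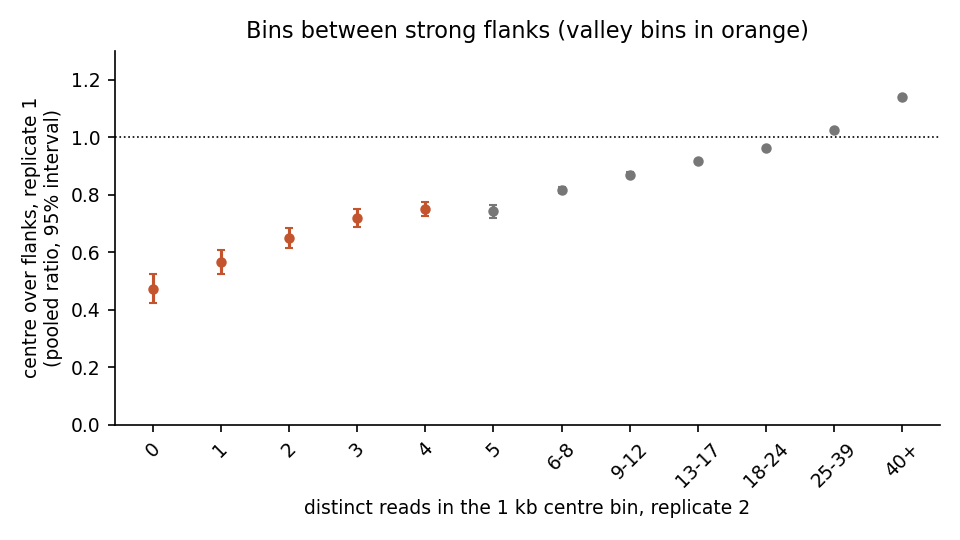
Pooled ratio of centre to flank reads in replicate 1 (points, with exact 95% intervals) for bins between strong flanks, grouped by their count in replicate 2; valley bins are orange and the dotted line marks equal levels. The ratio is 0.472 where replicate 2 had 0 reads, 0.750 at 4 reads and 0.742 at 5 reads, and it passes 1 only in the groups with 25 reads or more.

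The level in the valleys of replicate 1 lay between unmarked and marked chromatin. Valley bins averaged 11.5 reads (exact 95% interval 11.3 to 11.7) with a median of 10 and a 10th to 90th percentile of 4 to 21. Filled bins, with the same strong flanks but 18 or more reads in replicate 2, averaged 20.1 reads. Border bins, as low as a valley in replicate 2 but with a strong flank on 1 side and at most 4 reads per bin on the other, averaged 8.0 (7.91 to 8.09). Quiet bins, low in replicate 2 with low flanks on both sides, averaged 6.91. All of these sets had 3 or more reads in replicate 1. Valley bins held 1.44 times as many reads as border bins (exact 95% interval 1.40 to 1.47, counting error only and not the spread between bins). The flanks of the border bins averaged 11.3 reads in replicate 1 over both sides, under the 16.7 of the valleys. Border bins were defined by a low flank on 1 side, so this ratio cannot be told apart from the difference in flanks. At or under the background of replicate 1 were 26.9% of valley bins, 39.96% of border bins, 51.0% of quiet bins and 2.90% of filled bins.

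**Figure D3:**
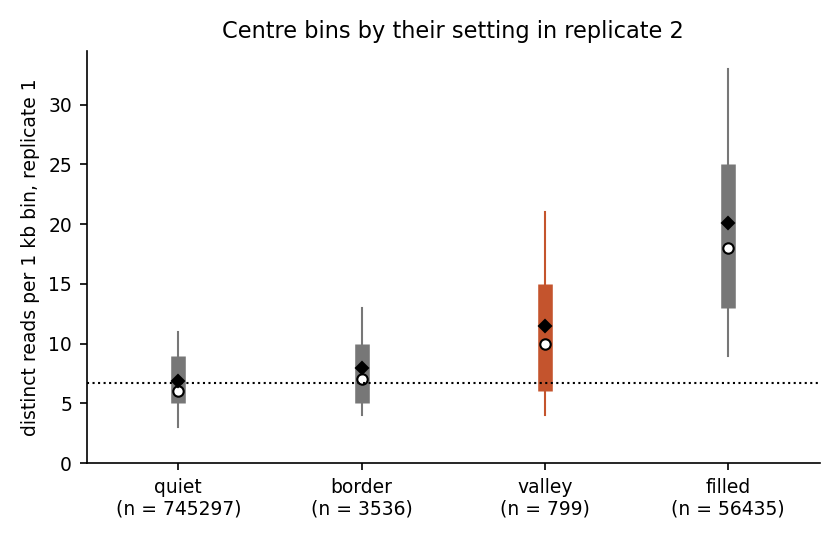
Distinct reads per 1 kb bin in replicate 1 for quiet, border, valley and filled bins as defined in replicate 2: thin lines span the 10th to 90th percentile, thick bars the 25th to 75th, circles are medians, diamonds means, and the dotted line is background. Valley bins, with a mean of 11.5, lie above border bins at 8.0 and below filled bins at 20.1.

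The valleys differed among themselves in how far replicate 1 followed replicate 2. Over the 764 valleys the ratio of valley to flanks in replicate 1 had a median of 0.677, with a 10th percentile of 0.259 and a 90th of 1.23, and ran from 0.109 to 3.61. It was lower where the read-free gap of replicate 2 was longer. In the 191 valleys with the longest gaps (940.5 bp or more) the pooled ratio was 0.536 (0.511 to 0.561), and in the 191 with the shortest (up to 584.75 bp) it was 0.802 (0.769 to 0.837). Positions of reads with 2 placements stood at 1.55 and 0.482 per kb in the valleys of these sets in replicate 1. Valleys of 2 or 3 kb had a ratio of 0.502 (0.461 to 0.546), and those of 1 kb had 0.706 (0.690 to 0.722). The 196 valleys with the highest flanks in replicate 2 had 0.623 (0.598 to 0.649), and the 198 with the lowest had 0.739 (0.706 to 0.774). These intervals cover counting error only.

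**Figure D4:**
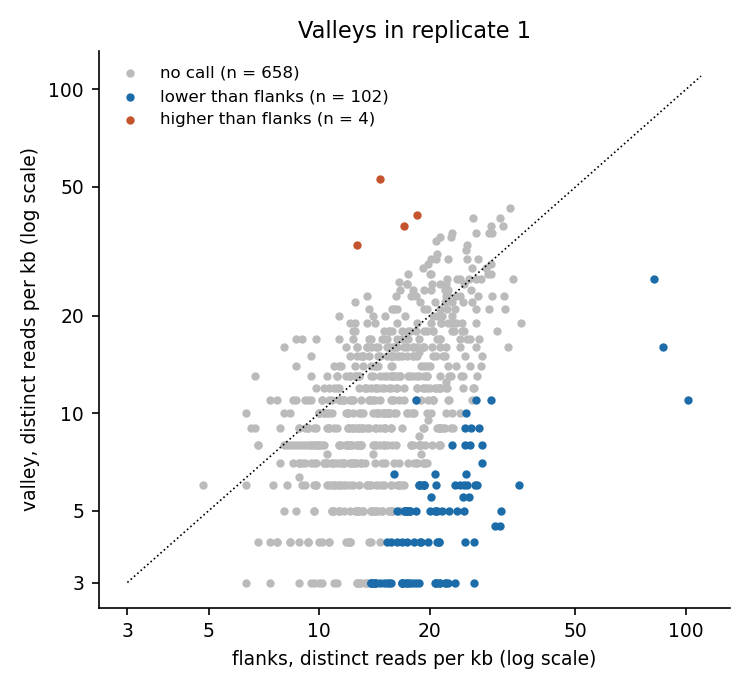
Reads per kb in the valley against reads per kb in its flanks, in replicate 1 and on log axes, 1 point per valley; blue points were called lower than their flanks, orange points higher, grey points neither, and the dotted line marks equal levels. The 102 valleys called lower lie at 26 reads per kb or fewer, while 4 valleys called higher lie at 33 to 53.

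The bins beside a valley showed how abrupt it was. Both neighbouring bins held 18 or more reads in replicate 2 at 204 valleys (26.7%), so the low stretch ended with the valley there. At 235 valleys (30.8%) a neighbouring bin held 8 or fewer, so the low stretch ran on. The pooled ratio in replicate 1 was 0.717 (0.688 to 0.746) in the abrupt valleys and 0.612 (0.587 to 0.638) in those with a low neighbour.

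The valleys with the lowest p in replicate 1 included 3 that lay near chromosome starts, of which both on chromosome 9 were rich in reads with 2 placements. On chromosome 9 from 3028001 to 3029000 the valley held 11 reads in replicate 1 and 0 in replicate 2. Its left and right flanks averaged 122 and 80.0 reads per kb in replicate 1 and 32.3 and 25.3 in replicate 2 (ratio 0.109 in replicate 1, exact binomial test, adjusted p = 8.55e-23). Its bin held 56 positions of reads with 2 placements in replicate 1 and its flanks held 535. The valley from 3021001 to 3022000 on the same chromosome held 26 and 3 reads, with a ratio of 0.318 in replicate 1 and 15 and 581 such positions. The bin next to it on the left held 6 reads in replicate 1 and 1 in replicate 2, fewer than the valley. On chromosome 11 from 3100001 to 3101000 the valley held 16 reads in replicate 1 and 4 in replicate 2. Flanks there averaged 151 and 22.7 reads per kb in replicate 1, and the valley was lower than both (ratio 0.185, exact adjusted p = 1.86e-14). The sides were unequal, with 452 of the 520 flank reads on the left, and the test pools both sides. The bin next to the valley on the right held 10 reads in replicate 1, fewer than the valley.

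The other 5 of the 8 valleys with the lowest p lay away from the chromosome starts. They held 1 to 2 positions of reads with 2 placements per kb in replicate 1, above the mean of 0.882 over valley bins. On chromosome 18 from 5611001 to 5613000, a valley of 2 kb held 9 reads in replicate 1 and 3 in replicate 2. Its flanks averaged 27.3 and 35.0 reads per kb in replicate 1 and 60.7 and 39 in replicate 2 (ratio 0.144 in replicate 1, exact adjusted p = 4.28e-06 in its lower bin). Both libraries were thus far below both flanks, and the 2 kb held 4 and 2 positions of reads with 2 placements. On chromosome 1 from 82727001 to 82729000 the 2 kb held 9 and 2 reads, with flanks of 26.7 and 33.7 in replicate 1 and 49.7 and 36.3 in replicate 2 (ratio 0.149, exact adjusted p = 4.39e-06 in its lower bin). On chromosome 15 from 6678001 to 6679000 the bin held 5 and 2 reads between flanks of 36 and 26.7 in replicate 1 and 22.0 and 54.3 in replicate 2 (ratio 0.160, exact adjusted p = 2.86e-05). Its neighbouring bins held 33 and 33 reads in replicate 1 and 55 and 35 in replicate 2, so the drop was complete within 1 bin on either side. On chromosome 5 from 32747001 to 32748000 the bin held 6 and 4 reads, and the longest read-free gap there measured 1243 bp in replicate 1 and 1533 bp in replicate 2, with midpoints 173 bp apart (ratio 0.171, exact adjusted p = 1.20e-05). On chromosome 11 from 30152001 to 30154000 the 2 kb held 22 reads in replicate 1 and 2 in replicate 2, with a ratio of 0.373 (exact adjusted p = 3.02e-06 in its lower bin). The bin to its right held 2 and 0 reads, so the depleted stretch there was wider than the valley called.

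Of the 8 valleys with the highest flanks in replicate 2, 1 was called lower in replicate 1, against 102 of all 764 valleys (13.4%). In the 196 valleys with the highest flanks 40 were called lower (20.4%), and in the 198 with the lowest 17 were (8.59%). The highest, on chromosome 7 from 70227001 to 70228000, had flanks of 37.0 and 88.7 reads per kb around 3 reads in replicate 2. In replicate 1 it held 29 reads between flanks of 23.7 and 35.0, so its level there was that of its flanks (ratio 0.989, exact adjusted p = 1). On chromosome 15 from 79516001 to 79517000, flanks of 79.7 and 44.7 stood around 2 reads in replicate 2, and 20 reads stood between 24.7 and 16.3 in replicate 1 (ratio 0.976). On chromosome 17 from 44194001 to 44195000 the ratio in replicate 1 was 0.768 (26 reads, exact adjusted p = 0.584). The valley on chromosome 3 from 27776001 to 27777000 lay in a marked stretch of 309 kb in replicate 2. It held 9 reads in replicate 1 between flanks of 25.3 and 17.3, with a ratio of 0.422 (exact adjusted p = 0.0939), and 0.397 with repeated reads kept, where it was called (exact adjusted p = 0.0291). Only the valley on chromosome 18 from 68067001 to 68069000 was called among these 8. It held 11 and 3 reads between flanks of 31.7 and 17.7 in replicate 1 and 58.7 and 57.3 in replicate 2 (ratio 0.223, exact adjusted p = 0.00401 in its lower bin), and lost the call when the adjacent bins were counted as flanks (exact adjusted p = 0.249). The remaining 3, on chromosomes 2 and 14, had ratios of 0.698, 0.561 and 0.538 in replicate 1.

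At 4 valleys replicate 1 went the other way and was higher than its flanks. On chromosome 19 from 4394001 to 4395000, replicate 1 held 53 reads between flanks of 19 and 10.3 reads per kb, and replicate 2 held 3 between 18.3 and 38.3 (ratio 3.61 in replicate 1, exact binomial test, adjusted p = 1.43e-08). The bin was thus a peak in replicate 1 and a notch in replicate 2. On chromosome 18 from 36409001 to 36410000, replicate 1 held 33 reads between 13.3 and 12, and replicate 2 held 1 between 43.7 and 63.7 (ratio 2.61, exact adjusted p = 0.00202). The longest read-free gap of replicate 2 there measured 1237 bp and held 41 reads of replicate 1. On chromosome 1, the valleys from 59710001 to 59711000 and from 162745001 to 162746000 held 38 and 41 reads in replicate 1 and 4 each in replicate 2 (ratios 2.24 and 2.22, exact adjusted p = 0.00496 and 0.00289). With the adjacent bins counted as flanks these chromosome 1 calls were lost (exact adjusted p = 0.275 and 0.0658), and the neighbouring bins in replicate 1 held 29 to 40 reads. The read-free gaps of replicate 2 at these 4 places held 21 to 41 reads of replicate 1. Reads with 2 placements numbered 0 in all 4 bins in both libraries. The marked stretch around them in replicate 2 was 13, 8, 48 and 29 kb. The fifth valley by this ratio, on chromosome 5 from 144608001 to 144609000, held 16 and 4 reads and was not called (ratio 2, exact adjusted p = 0.172).

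The widest valley, of 3 kb, lay on chromosome 9 from 78230001 to 78233000. It held 19 reads in replicate 1 and 8 in replicate 2, with flanks of 7.33 and 10.3 reads per kb in replicate 1 and 30.3 and 28.0 in replicate 2. Its flanks in replicate 1 stood at 1.32 times background (ratio 0.717, exact adjusted p = 0.0974 in the bin with the lowest p), and with repeated reads kept it was called (exact adjusted p = 0.0257). On chromosome 1 from 155059001 to 155061000 the 2 kb held 10 and 4 reads, with a ratio of 0.306 in replicate 1 (exact adjusted p = 0.0254 in its lower bin). That bin missed the threshold when the 5′ end was moved 60 bp downstream (exact adjusted p = 0.0666), and the valley held 26 positions of reads with 2 placements in replicate 2.

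Some valleys lay close together. Another valley lay within 20 kb of 116 valleys (15.2%) and within 5 kb of 18, while the median distance to the nearest was 498.75 kb. Close valleys can share flank bins or lie in the flank of each other, and are then not independent. In the pairs on chromosomes 2, 10 and 15 below, each valley lies in a flank of the other. The pairs on chromosomes 2 and 15 also share flank bins, and the chromosome 9 valleys from 3021001 and 3028001 share 2 flank bins. On chromosome 2 the valleys from 120256001 to 120257000 and from 120258001 to 120259000 were separated by 1 bin. They held 9 and 12 reads in replicate 1 and 2 and 4 in replicate 2, and the first was called lower in replicate 1 (ratio 0.329, exact adjusted p = 0.00925) while the second was not (0.563, exact adjusted p = 0.291). The first lost its call when the adjacent bins were counted as flanks (exact adjusted p = 0.0783). The difference between them was not tested. On chromosome 10 the valleys from 25132001 to 25133000 and from 25135001 to 25136000 held 3 and 7 reads in replicate 1 and 0 and 1 in replicate 2 (ratios 0.173 and 0.636, exact adjusted p = 0.00733 and 0.681). The call of the first was again lost with the adjacent bins as flanks (exact adjusted p = 0.0612). On chromosome 15 the pair from 99970001 to 99971000 and from 99972001 to 99973000 held 6 and 4 reads in replicate 1 and 3 and 4 in replicate 2. Its flanks in replicate 1 were 5.33 to 10.3 reads per kb, and neither valley was called. Over all valleys with another within 20 kb the pooled ratio in replicate 1 was 0.686, and over the 525 with none within 100 kb it was 0.698.

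Below the 1 kb scale, replicate 1 held fewer reads inside the longest read-free gap of replicate 2 than in its flanks. Within 2 kb of the midpoint of a valley, the longest stretch without a distinct read had a median of 725.5 bp in replicate 2 (25th to 75th percentile 584.75 to 940.5 bp) and 451.5 bp in replicate 1 (341 to 622 bp). In filled bins, of which every 20th was taken, the medians were 334 and 311.5 bp. Gaps of 1 kb or more occurred at 153 valleys in replicate 2 and at 56 in replicate 1. Inside the gaps of replicate 2, replicate 1 held 9.75 reads per kb, 0.584 times its flank level, and 0 reads at 22 valleys. In filled bins it held 14.5 reads per kb inside such gaps, 0.766 times its flank level. The midpoints of the gaps in the libraries were 563.75 bp apart at the median, and within 250 bp at 247 valleys (32.3%). In filled bins these values were 915.5 bp and 24.6%. The rule draws the gap of replicate 2 towards the valley midpoint, while in filled bins it can lie anywhere in the window. The distances are therefore not like for like, and their difference was not tested.

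With the valleys aligned on the gap of replicate 2, both strands of replicate 1 dipped around it. In the central 400 bp replicate 1 held 9.89 reads per kb, against 16.7 at 2 to 3 kb (ratio 0.592), and 900 bp lay under the level midway between these. The lowest 100 bp step was centred 50 bp to the left of the gap's middle for reads of the plus strand, at 4.70 reads per kb, and 50 bp to its right for the minus strand, at 4.49. These steps held 359 and 343 reads. The steps beside them held 375 and 389 on the plus strand and 369 and 352 on the minus strand, so the side was not resolved. The gap was set on leftmost bases and the profile on 5′ ends, which lie further right on the minus strand. In replicate 2, where the alignment makes the minimum, the ratio was 0.00817.

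**Figure D5:**
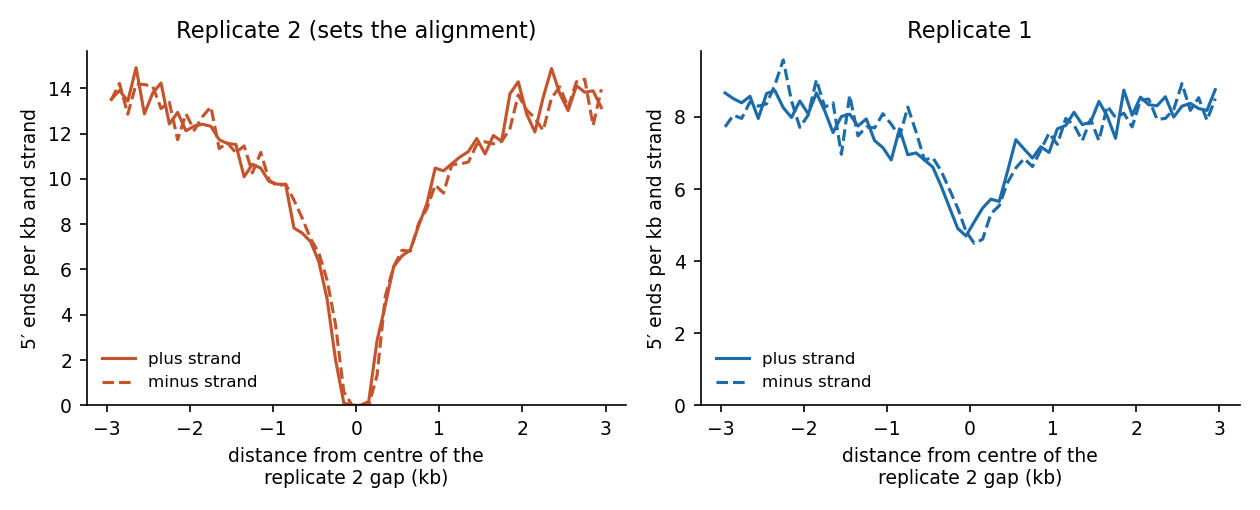
Read 5′ ends per kb on the plus strand (solid) and minus strand (dashed) in 100 bp steps, by distance from the middle of the longest read-free gap of replicate 2, over the 764 valleys; replicate 2, which sets the alignment, is at the left and replicate 1 at the right. In replicate 1 both strands fall to between 4 and 5 reads per kb at the gap, from about 8 at 2 to 3 kb.

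The valleys sat inside long marked stretches in replicate 2. Counted outward at 2 times background or more, with single weaker bins allowed, the marked stretch had a median of 21 kb on the left and 20 kb on the right. It reached 10 kb or more on both sides at 477 valleys (62.4%). Both sides together had a median of 47 kb in replicate 2, with a 90th percentile of 143.7 kb and a maximum of 430 kb. In replicate 1 the median was 9 kb, and 450 valleys (58.9%) had at least 1 marked bin on both sides. With 3 times background as the limit the medians were 30 kb and 1 kb. The 191 valleys in the longest stretches of replicate 2 (84.25 kb or more) had a pooled ratio of 0.650 in replicate 1 (0.621 to 0.681), and the 204 in the shortest (28 kb or less) had 0.733 (0.704 to 0.763).

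The libraries ranked the flanks of a valley in the same order more often where the flanks of replicate 2 were unequal. The rule treats both sides alike, so which side is higher was not used by it. At 730 valleys without a tie, the side with more reads in replicate 2 was also the higher one in replicate 1 at 451 (61.8%, exact 95% interval 58.1 to 65.3). Where the flanks of replicate 2 differed by 1.5-fold or more, this was so at 148 of 197 (75.1%), and at 2-fold or more at 51 of 59 (86.4%, 75.02 to 94.0). Across the 764 valleys, Pearson's r of the log2 ratio of left to right flank between the libraries was 0.45 and Spearman's rho 0.41. Valleys share libraries and placeable sequence, so no p-value is given.

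Valleys occurred on all 19 autosomes. Per Mb with reads they ranged from 0.203 on chromosome 12 (21 valleys) to 0.584 on chromosome 19 (32), with 0.348 over all autosomes. Chromosome 2 held the most, 62 valleys. As a share of the bins between strong flanks, valley bins made up 1.12% over all autosomes, from 0.666% on chromosome 8 (exact 95% interval 0.459 to 0.934) to 1.71% on chromosome 3 (1.298 to 2.21). Chromosome 11, with the most bins between strong flanks per Mb (49.1), held 52 valleys, at 0.951% of such bins (0.713 to 1.24). Chromosomes 8 and 3 were picked as the extremes, and their difference was not tested.

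Repeated reads were scarcer in the valleys than beside them. Before repeats were removed, reads at a position and strand already seen made up 14.1% of reads in valley bins and 20.3% in flank bins of replicate 1. In replicate 2 they made up 3.49% and 7.52%. Over each library the share was 15.2% in replicate 1 and 5.62% in replicate 2. These shares pool all valleys, so sites rich in repeats weigh heavily. With repeats kept, the replicate 1 ratio on chromosome 9 fell from 0.109 to 0.0471 at 3028001 and from 0.318 to 0.0918 at 3021001. No share without such sites was computed. Valleys were chosen for few reads, and the shares were not compared at equal read density.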

How the data were processed

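The authors deposited, per the file headers, 1 list of read placements per library, made with Bowtie (-e 70 -k 2 -m 2 -n 2 -l 36, best first) on mm8; no source used here states its version. Each deposited value is a position signed by strand, of unit other (neither count, score nor signal), in sections for reads with 1 and 2 placements. Positions were taken as the leftmost base counted from 0, since autosomal reads began at 3000000 on both strands of replicate 1. Printed coordinates count from 1. Distinct signed positions with 1 placement were counted in 1 kb bins. Replicate numbers follow record order.

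Valleys and lists were chosen with earlier results of these data known. Named valleys are the 8 with the highest flanks in replicate 2, the 8 with the lowest p and the 5 with the highest ratio in replicate 1, the 3 widest and the 3 closest pairs. For merged valleys, p is that of the bin with the lowest p. The binomial test was adjusted over all 71347 bins genome-wide and tried on simulated data, from which nothing is concluded here. A bin without a call can still be lower than its flanks, since depth in replicate 1 limits calls. Reads carry no molecular identifiers, so counting distinct positions removes PCR copies together with any separate molecules at the same position and strand. Copies were counted only in the alternative with all reads kept. Tests and intervals cover counting error alone. Chromosome X was left out by the rule. Alternatives changed repeats, position, bin phase, limits, flanks, threshold and test. Python 3.11.15, NumPy 2.4.6, SciPy 1.17.1, pandas 2.3.3 and matplotlib 3.10.9 were used.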

Additional observations from a re-analysis of the deposited data

Results flagged for a closer look

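Reads with 2 placements were outside the main measurement and are listed as signal there: the 799 valley bins held 705 distinct positions of such reads in replicate 1 and 634 in replicate 2. These are 2.07 and 2.54 times the mean over autosomal bins with reads, and 237 and 216 of the valley bins held any (29.7% and 27.0%). Of the filled bins, with the same strong flanks, 16.8% and 24.8% held any. In replicate 2 these shares differed little, although filled bins held 41.5 reads with 1 placement per bin and valley bins 2.90. The shares were not compared at equal read density. The highest bin held 56 in replicate 1 and 44 in replicate 2. Chromosome X was also outside the rule. The same limits gave 1 valley there, with 15 reads in replicate 1 and 2 in replicate 2 between flanks averaging 14.3 and 18.2 reads per bin, out of 107 bins between strong flanks.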

How the results depend on the processing

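The number of valleys was 764, and 249 and 1638 with a maximum of 2 and 6 reads in the centre, and 238 and 1518 with a flank minimum of 24 and 15; without replicate 1 it was 953. The share of valley bins called lower in replicate 1 was 13.6%. It was 20.6% with all reads kept (198 of 959 bins, background 3.63%), 20.7% with a centre maximum of 2, 22.0% and 7.97% with a flank minimum of 24 and 15, 32.9% and 7.55% with no minimum and a minimum of 5 in replicate 1, 7.89% with adjacent bins as flanks and 7.63% at adjusted p 0.01 (61 bins, background 0.551%). It stood above the share of all bins tested in each of these settings. The pooled ratio in replicate 1 was 0.689. It was 0.651 with all reads, 0.591 and 0.737 with a centre maximum of 2 and 6, 0.612 and 0.741 with a flank minimum of 24 and 15, 0.538 and 0.748 with no minimum and a minimum of 5 in replicate 1, and 0.762 with adjacent bins as flanks. Chosen after seeing the data, bins without reads of 2 placements gave 6.33% and 0.805. The same side was higher at 65.5% of valleys with all reads. The midpoints of the gaps were 316 bp apart at the median in a window of 1 kb either side. At 3 times background the marked stretch was 1 kb in replicate 1 and 30 kb in replicate 2. The log2 ratio was -3.25 in replicate 2, where the rule fixed it, and -0.54 in replicate 1, so their mean of -1.90 is no estimate over replicates. Limits set which bins enter; the cause of other changes was not tested. No paired analysis was possible because both libraries belong to 1 group. Depth in replicate 1 limits calls: valleys there hold 10 reads at the median.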
